A study of Mus musculus with 3 samples.

Results

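The proteasome genes described here were the 45 genes, of 32285 in the count tables, whose symbols begin with Psma, Psmb, Psmc, Psmd or Psme followed by a digit, with pseudogene symbols left out. They encode the 20S core (Psma and Psmb), the 19S regulatory particle (Psmc and Psmd) and the activators that can take its place (Psme). The data were single-cell RNA-Seq of CD45.1-sorted cells from left lungs of C57BL/6J (B6) mice or mice congenic with them. There were 3 libraries, each made from the pooled cells of 2 mice. The naive library came from lungs that were not transplanted. The 2-hour and 3-day libraries came from syngeneic grafts of CD45.2 donors in CD45.1 recipients, kept 60 minutes at 4 °C and 45 minutes at 28 °C and then reperfused for 2 hours or 3 days. In the transplants the sort takes recipient cells, and the methods list B6 CD45.1 mice as the congenic strain B6.SJL-Ptprca Pepcb/BoyJ. A CD45.1 sort is also named for the naive lungs, where there is no recipient.

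The proteasome degrades proteins tagged with ubiquitin. Its core is a stack of rings built from alpha and beta subunits, and proteolysis is carried out by the beta subunits encoded by Psmb5 (chymotrypsin-like), Psmb6 (caspase-like) and Psmb7 (trypsin-like). Interferon-gamma induces replacements for them, encoded by Psmb8, Psmb9 and Psmb10, which form the immunoproteasome that leukocytes also carry at rest and whose peptides are loaded onto MHC class I. PA28, an activator ring encoded by Psme1 and Psme2, is induced by the same cytokine.

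Of the naive, 2-hour and 3-day libraries, 2422, 10283 and 8324 cells passed the filters, with medians of 7298, 878 and 5716 UMIs (counted molecules) per cell. Pairs of libraries shared 8, 1 and 23 cell barcodes. Values are given for the 5 lineages with at least 50 cells in every library, which were B cells, T cells, NK cells, neutrophils and monocytes. All markers listed for each of the 5 were detected in its own cells. Clusters were named from these same lists, so this detection is no check of the names. No cluster was named from the proteasome genes. The lineages lay mostly in different clusters in the 3 libraries, and the largest were clusters 12, 4 and 2 for B cells, 13, 3 and 7 for T cells, 14, 6 and 19 for NK cells, 17, 0 and 1 for neutrophils and 28, 11 and 8 for monocytes in the naive, 2-hour and 3-day libraries. UMIs were summed per lineage and library and are given as counts per 1000000 UMIs (CPM), with 95% intervals that cover counting error only. There was 1 library per condition, so no difference was tested, spread between mice is unknown, and a gene is counted as higher or lower when it passed 1.5-fold. The naive library was counted with another version of Cell Ranger than both transplant libraries, so that a difference from naive cannot be told apart from one of software. Taking the total over genes with under 10 kb of introns moves each log2 ratio at 2 hours to naive by -0.58 to -0.40, at 3 days to naive by -0.48 to -0.35 and at 3 days to 2 hours by 0.04 to 0.12, depending on the lineage, so ratios to naive of that size change sign with the scale. The 3 comparisons share libraries and are given side by side.

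The starts of transcription of 38 of the 45 genes were found in the RefSeq promoter table (GRCm38.p6), and the 250 bases before each start were searched on both strands for motifs of the interferon and stress pathways that act on these genes. The sequences of the genes the results turn on are shown 5′ to 3′ on the gene's strand, with a motif in capitals where 1 was found. The windows lie at chr17:34198088-34198116 (plus strand) for Psmb8, chr14:54618024-54618052 (minus strand) for Psmb5 and chr11:70525338-70525356 (plus strand) for Psmb6. The GENCODE annotation starts Psmb8 farther upstream, at chr17:34197721, so by it the Psmb8 window lies inside the gene. The upstream stretches, chosen to hold no base of an annotated exon, lie at chr8:105938445-105938642 for Psmb10 and chr14:55591114-55591351 for Psme2, both on the minus strand.
Psmb8 with the gamma-activated site: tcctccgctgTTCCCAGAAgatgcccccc
Psmb5 with the antioxidant response element: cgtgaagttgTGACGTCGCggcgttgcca
Psmb6 with the antioxidant response element: ctaaagagagTGACGGAGC
Psmb10 upstream: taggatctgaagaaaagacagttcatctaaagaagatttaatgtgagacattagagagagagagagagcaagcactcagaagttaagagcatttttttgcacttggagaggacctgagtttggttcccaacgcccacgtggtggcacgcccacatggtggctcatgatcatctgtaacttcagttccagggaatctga
Psme2 upstream: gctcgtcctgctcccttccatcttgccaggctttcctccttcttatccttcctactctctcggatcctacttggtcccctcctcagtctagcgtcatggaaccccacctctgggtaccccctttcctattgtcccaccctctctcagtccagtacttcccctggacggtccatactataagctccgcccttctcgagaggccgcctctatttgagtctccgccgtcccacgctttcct
The gamma-activated site (TTCNNNGAA), a motif of interferon-gamma signalling, was found in 1 of these genes, Psmb8, and in 7.18% of all 27018 promoters searched. The antioxidant response element (TGACNNNGC), a binding motif of the Nrf factors, was found in 5 (Psmb5, Psmb6, Psmc6, Psmd12 and Psmd9) and in 10.2% of all. The interferon-stimulated response element (GAAA, any 2 bases, GAAA), read by IRF factors, was found in 3 (Psmb3, Psmd4 and Psmd9) and in 3.04% of all. Both motifs of Psmd9 lie inside its gene by GENCODE, which starts it at chr5:123169413. None of the windows of Psmb9, Psmb10, Psme1 and Psme2 held any of these letters. By GENCODE, which starts Psmb9 at chr17:34187764 and Psme1 at chr14:55578123, the windows searched for Psmb9 and Psme1 lie inside the genes. The bases before their GENCODE starts were not searched. By RefSeq, Psmb9 and Tap1, a subunit of the peptide transporter of MHC class I loading, start on opposite strands with 225 bases between them. The GENCODE start of Psmb9 lies farther upstream and does not give this gap.

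The balance of immunoproteasome and constitutive catalytic transcripts was lower in neutrophils and monocytes at 2 hours than in the other libraries, while the intervals of the lymphocyte differences at 2 hours from naive included 0. In neutrophils, Psmb8, Psmb9 and Psmb10 together held 59.8% (55.9 to 63.7%, 620 UMIs) of the UMIs of the 6 catalytic genes in naive lungs, 43.7% (39.6 to 47.8%, 593 UMIs) at 2 hours and 62.8% (61.2 to 64.3%, 3911 UMIs) at 3 days. The share at 2 hours thus differed by -16.2 percentage points (-21.6 to -10.6) from naive, and at 3 days by 19.1 percentage points (14.8 to 23.3) from 2 hours. With lineages called cell by cell from marker UMIs these differences were -12.4 and 12.6 points. In monocytes the share was 64.4% (61.9 to 66.9%, 1439 UMIs), 53.0% (48.1 to 57.9%, 415 UMIs) and 59.1% (58.3 to 59.9%, 15763 UMIs) in the same order, a difference of -11.4 percentage points (-16.8 to -6.03) at 2 hours from naive. Monocytes at 3 days still differed from naive by -5.33 percentage points (-7.88 to -2.71), whereas the neutrophil difference was 2.93 percentage points (-1.15 to 7.12).

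Lymphocyte shares lay between 59.6% and 66.9% in all libraries. B cells held 59.6% (57.3 to 61.8%, 1894 UMIs), 59.7% (56.1 to 63.2%, 762 UMIs) and 64.0% (62.9 to 65.1%, 6966 UMIs), and the 3-day share differed by 4.44 percentage points (1.97 to 6.93) from naive. The T cell shares were 64.1%, 66.9% and 66.1%, and those of NK cells 64.8%, 62.9% and 65.9%. The differences at 2 hours from naive were 0.155 percentage points (-3.99 to 4.24) in B cells, 2.80 percentage points (-0.0504 to 5.61) in T cells and -1.90 percentage points (-5.89 to 1.98) in NK cells, all with intervals that include 0. The B cell share at 3 days differed by 4.29 percentage points (0.677 to 7.98) from 2 hours, an interval that leaves out 0. By pair, 3 lymphocyte differences at 2 hours from naive had intervals that leave out 0. Psmb10 of Psmb10 and Psmb7 differed by 15.1 percentage points (6.90 to 22.7) in T cells and 11.7 percentage points (0.811 to 22.1) in B cells, and Psmb9 of Psmb9 and Psmb6 by -7.96 percentage points (-15.5 to -0.286) in B cells. Because a share is taken within a library, it does not depend on the total it is scaled to. Psmb7, which enters the 6-gene and Psmb10 shares, holds 52.6 kb of introns. The other catalytic genes hold 0.353 kb (Psmb8) to 3.0 kb (Psmb5). Over all tested genes with 50 kb or more, the median log2 ratio at 2 hours to naive was -1.53 in B cells and -1.44 in T cells. The part of introns in the shares was not tested.

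**Figure D1:**
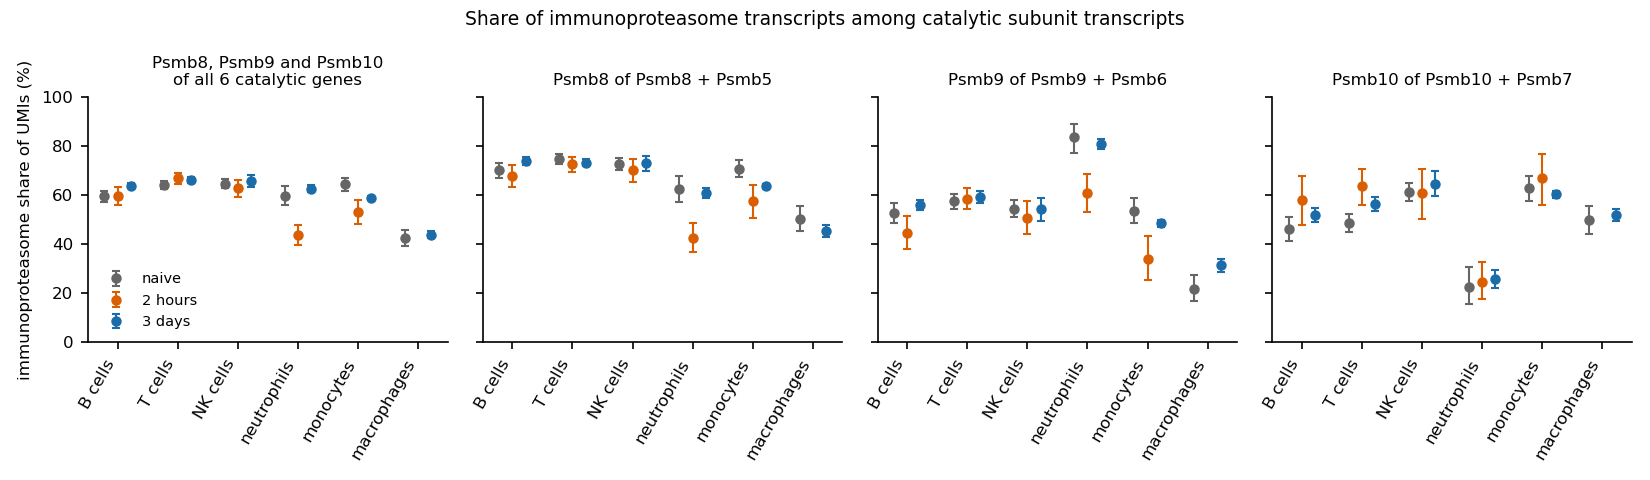
Share (%) of UMIs from immunoproteasome genes for all 6 catalytic genes and for each pair of alternative subunits, by lineage and library (points, with exact 95% intervals for counting error as bars). At 2 hours the neutrophil and monocyte points of the first panel lie at 43.7% and 53.0%, under their naive and 3-day points, and macrophages have no 2-hour point because fewer than 50 were found.

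By subunit, the low share at 2 hours came with lower levels of the immunoproteasome genes. Psmb8, which replaces Psmb5, measured 91.4 CPM in naive lungs, 31.8 at 2 hours and 114 at 3 days in neutrophils, a log2 ratio of -1.52 (95% interval -1.86 to -1.2) at 2 hours to naive. Psmb9, which replaces Psmb6, measured 59.6, 26.2 and 105 CPM in the same order, with log2 ratios of -1.19 (-1.57 to -0.81) at 2 hours to naive and 2.0 (1.71 to 2.31) at 3 days to 2 hours. Psmb10, which replaces Psmb7, was at a low level throughout, at 12.8, 8.47 and 14.1 CPM. The lowest value of all 3 genes was thus that of the 2-hour library, though for Psmb10 this rests on 29 naive and 33 2-hour UMIs. Markers of neutrophils themselves summed to 114245, 51572 and 153001 CPM in these cells, with all 8 detected in each library. Markers of the other lineages were far lower, at 48.6, 95.4 and 172 CPM for the 9 of B cells and 371, 237 and 374 CPM for the 12 of monocytes, and their part in the result was not tested.

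Monocytes held Psmb8 at 279, 149.8 and 293 CPM and Psmb9 at 113, 47.9 and 110.4 CPM. Psmb10 measured 131, 72.4 and 144 CPM, and all 3 genes were lowest at 2 hours. The log2 ratios at 2 hours to naive were -0.90 (-1.19 to -0.61), -1.23 (-1.77 to -0.73) and -0.85 (-1.29 to -0.43) in that order. Markers of monocytes themselves summed to 5500, 3603 and 5715 CPM in these cells, and those of macrophages to 2197, 1499 and 1886 CPM. Neutrophil marker UMIs summed to 1004, 5231 and 1792 CPM in the monocytes of the 3 libraries, above the monocyte markers at 2 hours. In neutrophils at 2 hours they summed to 51572 CPM. The part of these other markers in the monocyte values was not tested.

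On the CPM scale, B cells did not show this drop in Psmb8, which measured 175, 195 and 229.8 CPM. Their Psmb9 stood at 86.0, 66.6 and 113 CPM and their Psmb10 at 53.9, 38.3 and 64.2 CPM, the highest value of each lying at 3 days. T cells held Psmb8 at 207, 203 and 237 CPM and Psmb9 at 101, 102 and 105 CPM, and NK cells held Psmb8 at 231, 272 and 279 CPM and Psmb9 at 101, 112 and 119.8 CPM. Psmb10 was the exception, at 57.3, 36.6 and 68.8 CPM in T cells and 101, 57.4 and 108 CPM in NK cells, lowest at 2 hours as in the myeloid lineages. Its log2 ratio at 3 days to 2 hours was past 1.5-fold in all 5 lineages, at 0.75 in B cells, 0.91 in T cells, 0.92 in NK cells, 0.74 in neutrophils and 0.99 in monocytes.

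Summed over the 3 genes, the log2 ratio at 2 hours to naive was -1.30 (-1.54 to -1.07) in neutrophils and -0.95 (-1.17 to -0.74) in monocytes, against -0.07 (-0.23 to 0.09) in B cells, -0.10 (-0.21 to 0.01) in T cells and 0.02 (-0.13 to 0.17) in NK cells. The ratio of B cells exceeded that of neutrophils by 1.23 (0.96 to 1.51) and that of monocytes by 0.88 (0.62 to 1.14) on the log2 scale, intervals that again hold counting error only. The sum at 3 days to 2 hours was 1.81 (1.62 to 2.0) in neutrophils, 1.02 (0.83 to 1.22) in monocytes, 0.44 (0.30 to 0.58) in B cells, 0.27 (0.17 to 0.37) in T cells and 0.20 (0.04 to 0.36) in NK cells. Every lineage was thus higher at 3 days than at 2 hours, and both libraries of this pair were counted with the same software. All these ratios are on the CPM scale. Under the total over genes with under 10 kb of introns, those at 2 hours to naive shift by -0.48 in neutrophils and -0.43 in monocytes. The shifts are -0.58 in B cells, -0.40 in T cells and -0.52 in NK cells. On that scale every lineage is lower at 2 hours than in naive lungs.

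The constitutive genes summed had log2 ratios at 2 hours to naive of -0.36 (-0.60 to -0.12) in neutrophils and -0.27 (-0.51 to -0.03) in monocytes, nearer to 0 than those of the immunoproteasome genes. In T cells the constitutive sum had -0.28 (-0.43 to -0.13), farther from 0 than the immunoproteasome sum. For 3 days to naive it had 0.40 (0.26 to 0.53) in monocytes, where the immunoproteasome sum had 0.07 (-0.03 to 0.17). Psmb5 measured 54.8, 42.8 and 72.8 CPM in neutrophils and 114, 111 and 168 CPM in monocytes, and Psmb6 11.5, 16.7 and 24.7 CPM and 96.8, 93.3 and 117 CPM. In lymphocytes Psmb5 measured 74.0, 92.4 and 80.7 CPM in B cells, 69.6, 75.7 and 86.0 CPM in T cells and 86.9, 115 and 103 CPM in NK cells, and Psmb6 77.4, 82.5 and 88.8 CPM, 74.1, 71.9 and 71.5 CPM and 84.5, 108 and 101 CPM. Neither gene was past 1.5-fold at 2 hours to naive in any lineage. Psmb7 behaved otherwise and was low at 2 hours everywhere, at 62.6, 27.7 and 59.3 CPM in B cells, 60.5, 20.9 and 53.0 CPM in T cells, 63.9, 37.0 and 59.0 CPM in NK cells, 43.7, 26.2 and 40.7 CPM in neutrophils and 77.1, 35.6 and 94.1 CPM in monocytes. Its log2 ratios at 3 days to naive ran from -0.19 to 0.29. Psmb7 holds 52.6 kb of introns, and their part in its levels and in the constitutive sums was not tested.

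**Figure D2:**
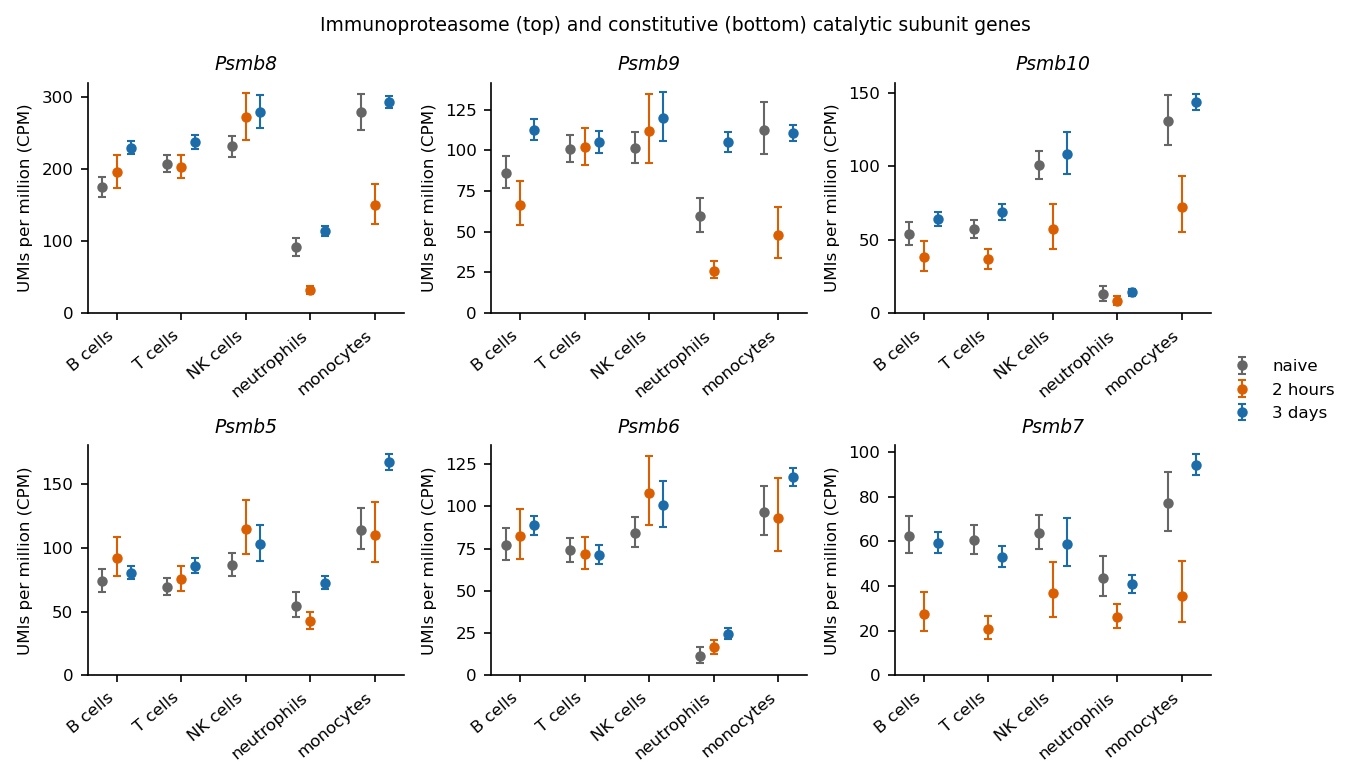
Level (CPM, linear axis from 0) of the immunoproteasome genes (top) and their constitutive counterparts (bottom) in 5 lineages and 3 libraries, with exact 95% Poisson intervals. Psmb8 and Psmb9 are lowest at 2 hours in neutrophils and monocytes, and Psmb7 and Psmb10 are lowest at 2 hours in every lineage. In neutrophils the Psmb10 points rest on few counts, with 29 naive and 33 2-hour UMIs.

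Neutrophils also differed from the other lineages in the shares within the Psmb9 and Psmb10 pairs. Their high Psmb9 share came with a low level of its partner. Psmb6 measured 11.5 CPM in naive neutrophils, beside 74.1 to 96.8 CPM in the other 4 lineages. Psmb9 itself was also lowest there, at 59.6 CPM beside 86.0 to 113 CPM. Psmb9 made up 83.9% (77.2 to 89.2%, 161 UMIs) of Psmb9 and Psmb6 UMIs in naive neutrophils and 81.0% (78.8 to 83.0%, 1365 UMIs) at 3 days. In naive B cells, T cells, NK cells and monocytes it made up 52.6%, 57.6%, 54.5% and 53.8%, and naive neutrophils exceeded monocytes by 30.1 (21.9 to 37.1) percentage points. At 2 hours it made up 61.1% in neutrophils and 58.6% in T cells. T cells minus neutrophils was -2.48 percentage points (-10.7 to 6.11), so neutrophils were not set apart from T cells there. Psmb10 went the other way, at 22.7% (15.7 to 30.9%, 128 UMIs) of Psmb10 and Psmb7 UMIs in naive neutrophils, 24.4% at 2 hours and 25.8% at 3 days. The other 4 lineages held 46.3% to 62.9% in the naive library, and neutrophils differed from monocytes by -40.2 (-48.2 to -30.8) points there and by -34.7 (-38.4 to -30.6) at 3 days. The Psmb10 share of neutrophils moved by only 1.79 percentage points (-8.49 to 11.9) at 2 hours, while their Psmb8 share moved by -19.9 percentage points (-27.4 to -12.1) and their Psmb9 share by -22.8 percentage points (-31.8 to -13.2).

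The neutrophils of the 2-hour library lay in 3 clusters, and all 3 had a low immunoproteasome share. Cluster 0, led by Scgb1a1, a gene of airway club cells, and by Cxcl3, held 44.1% (39.2 to 49.1%). Cluster 5, led by the granule genes Ngp and Camp, held 45.4% (36.6 to 54.3%), and cluster 16, led by Ccl4 and Ccl3, held 38.1% (26.1 to 51.2%). The naive neutrophils of cluster 17 held 60.3% (56.3 to 64.3%) and the 3-day neutrophils of cluster 1 held 62.7% (61.1 to 64.2%), so the intervals of the 2-hour clusters lie under both.

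A cluster of the 3-day library without a cell type name, cluster 22, stood with the 2-hour neutrophils in this measure. Its 234 cells were led by Tnf, Ccl3 and Ccrl2, and held a share of 41.2% (36.9 to 45.6%). Neutrophil was its closest class, with a median log2 ratio of 0.313 and 2 of 8 markers past the limit, too few for a name. These cells are thus not part of the 3-day neutrophil share of 62.8%. It was not short of immunoproteasome transcripts, which measured 204 CPM beside 232 in cluster 1. Its constitutive catalytic genes were higher, at 292 beside 138 CPM. In the 2-hour clusters 0, 5 and 16 the immunoproteasome sum was 69.6, 59.3 and 64.6 CPM, so a like share came with another level.

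Monocytes at 3 days were split by cluster. Those of cluster 8, led by Chil3 and Vcan, held 57.9% (57.0 to 58.7%), and those of cluster 15, led by Cd300e and Ace, held 64.2% (62.4 to 66.0%). Naive monocytes of cluster 28 held 64.6% (62.0 to 67.1%). Cluster 11, with Ace and Fabp4 among its leading genes, was the only monocyte cluster with at least 50 cells in a pair of libraries, and its share was 53.3% (48.3 to 58.2%) at 2 hours and 61.7% (56.5 to 66.8%) at 3 days. Macrophages were compared between naive and 3-day lungs only, since 7 were found at 2 hours, and their shares of 42.6% (39.4 to 45.8%, 928 UMIs) and 43.9% (42.5 to 45.4%, 4375 UMIs) were under those of monocytes. Within them, cluster 27, led by Fcrls and C1qb, held 49.8% (47.4 to 52.3%) and cluster 9, led by Saa3 and Arg1, held 40.4% (38.5 to 42.3%).

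**Figure D3:**
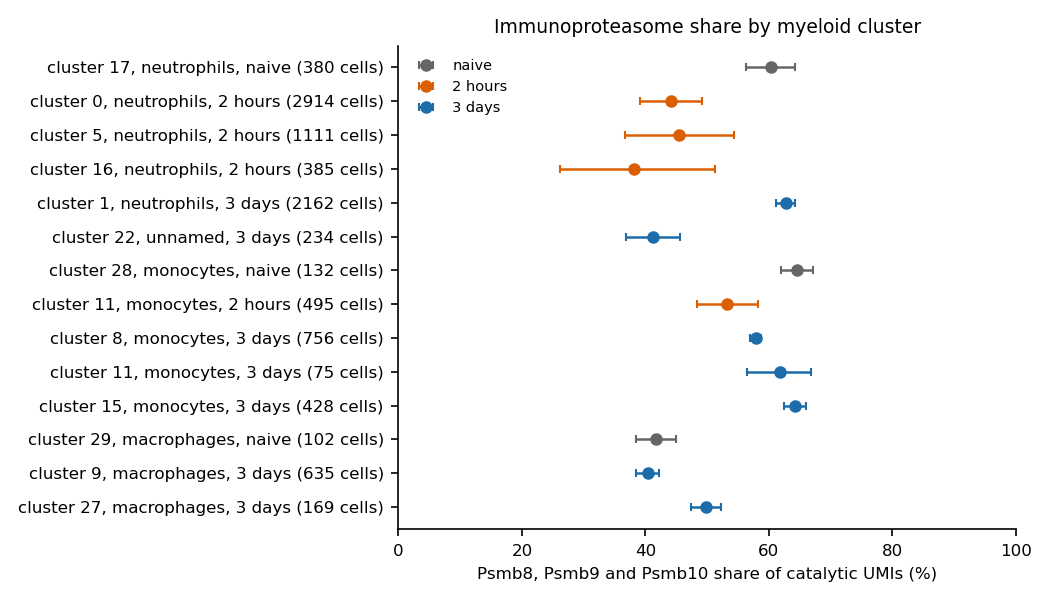
Share (%) of catalytic UMIs from Psmb8, Psmb9 and Psmb10 in each myeloid cluster with at least 50 cells in a library (points, coloured by library, with exact 95% intervals; cell numbers in the labels). The 2-hour neutrophil clusters and cluster 22 lie between 38.1% and 45.4%, and the naive and 3-day neutrophils at 60.3% and 62.7%.

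PA28 followed another course, and its genes summed were highest at 2 hours in lymphocytes and monocytes. Psme1, its alpha subunit, measured 168 CPM in naive lungs, 335 at 2 hours and 189 at 3 days in B cells, a log2 ratio of 1.0 (95% interval 0.82 to 1.17) at 2 hours to naive. T cells held it at 266, 376 and 264 CPM, NK cells at 266, 438 and 310.5 CPM and monocytes at 267, 347 and 245 CPM. In neutrophils it measured 85.3, 85.9 and 87.6 CPM, and the intervals of all 3 ratios include 0. In the same cells, B cell markers summed to 10346, 4824 and 7189 CPM in B cells and NK cell markers to 15660.1, 8327 and 13537 CPM in NK cells. Neutrophil markers summed to 385, 2102 and 1843 CPM in B cells, and T cell markers to 594, 1524 and 901 CPM in NK cells. Plasma cell markers summed to 263, 810 and 284 CPM in B cells, highest at 2 hours like PA28. These too differed between the libraries, and their part in the PA28 levels was not tested.

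Psme2, the beta subunit, measured 64.2, 105 and 81.7 CPM in B cells, with a log2 ratio of 0.71 (0.41 to 1.01) at 2 hours to naive. It was under 1.5-fold elsewhere, at 128, 145 and 132 CPM in T cells, 116, 132 and 140.3 CPM in NK cells, 56.5, 42.1 and 61.2 CPM in neutrophils and 178, 157 and 160.4 CPM in monocytes.

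For both PA28 subunits summed, the log2 ratio at 2 hours to naive was 0.92 (0.77 to 1.07) in B cells, 0.40 (0.31 to 0.50) in T cells, 0.58 (0.44 to 0.71) in NK cells, 0.18 (0.00 to 0.35) in monocytes and -0.15 (-0.35 to 0.06) in neutrophils. With the total over genes of under 10 kb of introns these values shift by -0.58, -0.40, -0.52, -0.43 and -0.48, which leaves B cells above 0, NK cells and T cells near 0 and monocytes below it. Between lineages on the CPM scale, B cells exceeded T cells by 0.52 (0.35 to 0.69) and neutrophils by 1.07 (0.82 to 1.32). The B cell ratio at 3 days to 2 hours was -0.70 (-0.82 to -0.58). In B cells the immunoproteasome genes and PA28 thus had unlike ratios at 2 hours to naive, at -0.07 and 0.92. Psme2b, a retrocopy of Psme2 whose reads may be shared with the parent gene, is uncertain and measured 9.5, 3.96 and 12.5 CPM in B cells, 9.09, 6.74 and 7.58 CPM in T cells, 5.63, 1.95 and 9.98 CPM in NK cells, 1.77, 3.59 and 11.4 CPM in neutrophils and 14.6, 3.68 and 10.3 CPM in monocytes.

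Of the other activators, Psme3, the nuclear PA28 gamma, was highest at 3 days in all 5 lineages, though in monocytes the naive value was nearly the same. It measured 25.1, 29.7 and 44.6 CPM in B cells, 30.5, 22.8 and 39.2 CPM in T cells, 29.3, 34.1 and 42.3 CPM in NK cells, 9.72, 12.3 and 20.2 CPM in neutrophils and 38.8, 24.6 and 39.3 CPM in monocytes. Psme4, which encodes the PA200 activator, was highest in the naive library in all 5 lineages. It measured 139, 21.1 and 43.4 CPM in B cells, 112, 26.3 and 35.5 CPM in T cells, 119, 21.4 and 43.3 CPM in NK cells, 64.9, 28.0 and 32.6 CPM in neutrophils and 126, 29.5 and 57.5 CPM in monocytes. The log2 ratio of Psme4 at 3 days to 2 hours, within the same software, was 1.04 in B cells, 0.43 in T cells, 1.01 in NK cells, 0.22 in neutrophils and 0.97 in monocytes.

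In the 19S particle, Psmd14, the deubiquitinase that releases ubiquitin from substrates, and Psmd1, a scaffold subunit of its base, were also highest in the naive library. Psmd14 measured 111, 44.9 and 49.3 CPM in B cells, 107, 37.5 and 45.0 CPM in T cells, 129, 46.7 and 51.3 CPM in NK cells, 46.8, 12.8 and 11.4 CPM in neutrophils and 75.4, 45.4 and 59.0 CPM in monocytes. Psmd1 measured 64.2, 21.8 and 34.0 CPM in B cells, 50.4, 23.1 and 30.1 CPM in T cells, 56.8, 39.9 and 41.4 CPM in NK cells, 8.84, 3.08 and 7.02 CPM in neutrophils and 70.9, 22.1 and 38.7 CPM in monocytes. Psme4, Psmd14 and Psmd1 hold 100.3, 85.9 and 67.5 kb of introns, ranks 1, 2 and 4 by length among the 45 genes. Psmd9, at rank 3 with 73.5 kb, measured 43.0, 27.7 and 34.7 CPM in B cells. Its intron length rests on the GENCODE start, which lies far upstream of the RefSeq start used for its promoter. Psma2, at rank 5 with 57.3 kb, was highest at 2 hours and not in the naive library in lymphocytes. It measured 114, 147 and 126 CPM in B cells, 120, 149 and 121 CPM in T cells and 166, 210 and 155 CPM in NK cells. In B cells at 3 days to naive, the median log2 ratio over all tested genes was 0.37 for genes with under 10 kb of introns and -1.10 for those with 50 kb or more. The same medians at 3 days to 2 hours were 0.11 and 0.49. No source states whether intron reads were counted, and their part in the naive levels was not tested.

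Psmd11, which encodes a scaffold subunit of the 19S lid, was the 1 gene of the 40 tested in all 5 lineages that was lower by over 1.5-fold at 3 days than at 2 hours in every lineage, beside 3.88% of all 5442 genes tested in all 5. It measured 108 CPM in naive lungs, 158 at 2 hours and 84.0 at 3 days in B cells, 85.1, 121 and 70.2 CPM in T cells, 93.4, 151 and 86.5 CPM in NK cells, 55.2, 57.5 and 30.3 CPM in neutrophils and 77.7, 138 and 73.4 CPM in monocytes. Its log2 ratio at 3 days to 2 hours lay at -0.91 (-1.12 to -0.70) in B cells and from -0.93 to -0.78 over the 5. The 2-hour value was the highest in each lineage, though in neutrophils it differed from naive by only 0.06 (-0.26 to 0.38). Uchl5, a deubiquitinase bound to the 19S particle but outside the rule, had the same order, at 42.2, 97.0 and 29.7 CPM in B cells and 26.9, 64.1 and 22.9 CPM in neutrophils.

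**Figure D4:**
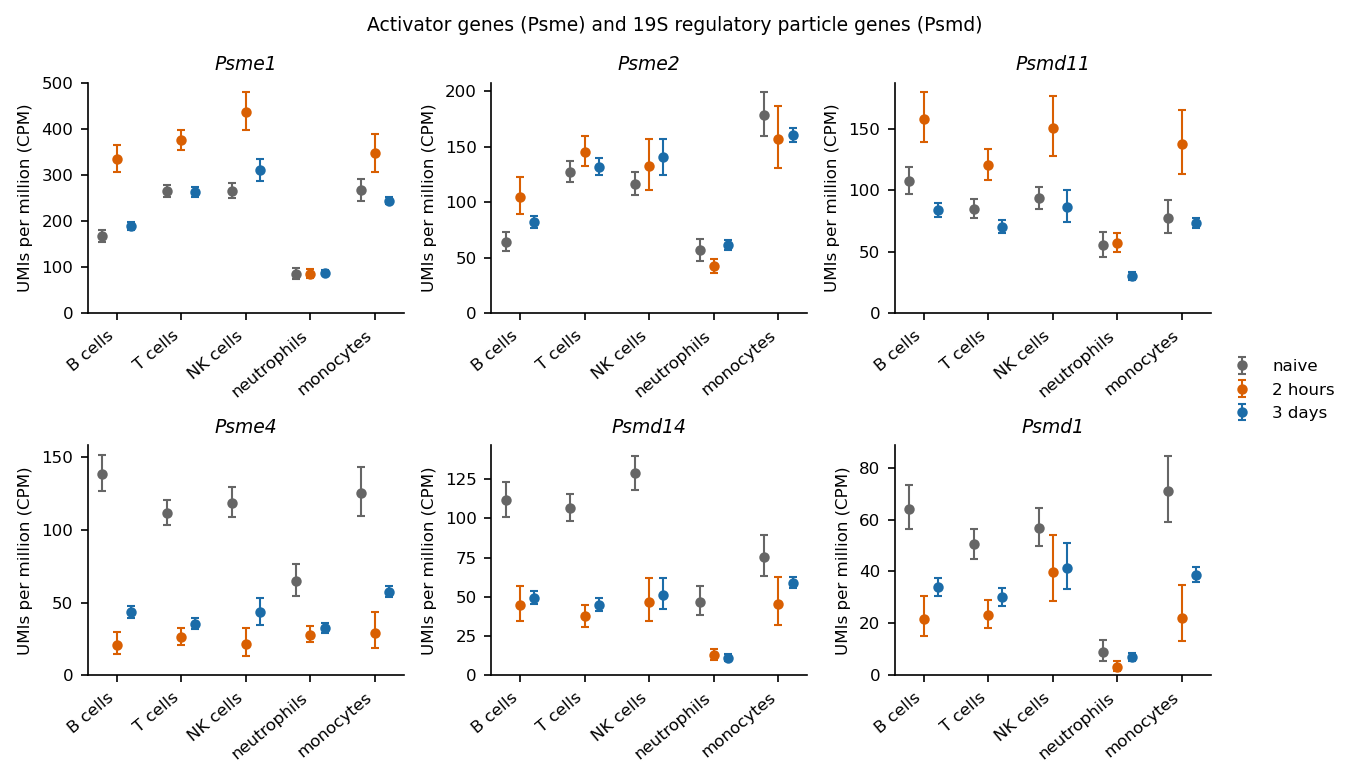
Level (CPM, linear axis from 0) of activator genes and of 19S genes in 5 lineages and 3 libraries, with exact 95% Poisson intervals. Psme1 and Psmd11 are highest at 2 hours in lymphocytes and monocytes, and Psme4, Psmd14 and Psmd1 are highest in the naive library.

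Summed over all 45 genes, catalytic and activator genes included, B cells held 3302, 3339.9 and 3541 CPM, T cells 3355, 3318 and 3399.7 CPM and NK cells 3844, 4199 and 4189 CPM in the naive, 2-hour and 3-day libraries. Neutrophils held 1425, 1293 and 1813 CPM and monocytes 4252, 3768 and 4981 CPM, with the lowest value at 2 hours. With lineages called cell by cell, the neutrophil log2 ratio at 2 hours to naive turned to 0.0088 and the T cell ratio at 3 days to 2 hours to -0.045. The log2 ratio of the sum at 3 days to 2 hours was 0.49 (0.44 to 0.53) in neutrophils and 0.40 (0.35 to 0.46) in monocytes, against 0.08 (0.04 to 0.13) in B cells, 0.03 (0.00 to 0.07) in T cells and -0.0037 (-0.06 to 0.05) in NK cells. Among 3-day T cells, the 838 of cluster 7 held 3232 CPM, under the 2-hour T cell value. The 168 of cluster 23, led by Il5 and Rora, held 4370 CPM, and this cluster had 1 cell at 2 hours. The difference between neutrophils and B cells was -0.40 (-0.47 to -0.34) as B cells minus neutrophils.

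By role at 3 days to 2 hours, the 7 genes of the alpha ring, which gates the core, were at 0.34 (0.25 to 0.43) in neutrophils and 0.35 (0.25 to 0.45) in monocytes. The 4 beta genes without catalytic activity, Psmb1 to Psmb4, were at 0.56 (0.44 to 0.67) and 0.62 (0.48 to 0.76). The 6 ATPases of the 19S base, Psmc1 to Psmc6, which unfold substrates, were at 0.13 (-0.02 to 0.28) and 0.24 (0.06 to 0.43), and its 11 other subunits at 0.28 (0.18 to 0.38) and 0.35 (0.23 to 0.48). In both lineages the ratio of these beta genes was thus larger than that of the ATPases. The alpha ring ratio was larger too, but its interval overlaps that of the ATPases in both, and their difference was not tested. The alpha ring measured 769, 837 and 880.1 CPM in B cells, 355, 358 and 454 CPM in neutrophils and 1100.5, 1073 and 1367 CPM in monocytes, and the ATPases 316, 324 and 346 CPM, 92.8, 119 and 130.3 CPM and 296, 320.5 and 379 CPM. The 3 chaperones of 19S assembly, Psmd5, Psmd9 and Psmd10, measured 88.8, 84.5 and 87.2 CPM, 20.3, 27.2 and 31.2 CPM and 51.2, 57.7 and 66.4 CPM. Psmb4 measured 42.9, 39.0 and 68.5 CPM in neutrophils and 137, 108 and 230.3 CPM in monocytes, and with Psmb7 and Psmb10 it was past 1.5-fold higher at 3 days than at 2 hours in all 5 lineages, 3 of 40 genes beside 6.67% of all.

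Genes were counted where they had at least 100 UMIs over the 3 libraries of a lineage, which 42 of the 45 reached in B cells, T cells and monocytes and 41 in NK cells and neutrophils. Psma8, Psmb11 and Psmc3ip were under the minimum in all 5, as were Psme2b in NK cells and Psmd5 in neutrophils. In B cells, of the 42 genes, the count past 1.5-fold at 2 hours to naive was 3 higher and 7 lower, beside 16.7% and 43.2% of all 8949 genes tested. It was 1 higher and 4 lower, beside 15.1% and 27.3% of all 8949 genes tested at 3 days to naive, and at 3 days to 2 hours 13 higher and 3 lower, beside 34.7% and 12.2% of all 8949 genes tested. The largest changes at 2 hours to naive were Psme1 (1.0), Psmd10 (0.96), which chaperones 19S assembly, and Psme2 (0.71), and, lower, Psme4 (-2.71), Psmd1 (-1.56) and Psmd14 (-1.31). For 3 days to naive they were Psme3 (0.83) and, lower, Psme4 (-1.67), Psmd14 (-1.18) and Psmd1 (-0.92). For 3 days to 2 hours they were Psme2b (1.66), Psmb7 (1.10) and Psme4 (1.04), and, lower, Psmd11 (-0.91), Psme1 (-0.83) and the core subunit gene Psmb3 (-0.60).

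In T cells, no gene was higher and 6 were lower at 2 hours to naive, beside 14.2% and 40.7% of all 9124 genes tested. They were led by Psme4 (-2.09), Psmb7 (-1.54) and Psmd14 (-1.51). The counts at 3 days to naive were 0 higher and 3 lower, beside 11.6% and 27.1% of all 9124 genes tested, the lower ones being Psme4 (-1.65), Psmd14 (-1.24) and Psmd1 (-0.75). The counts at 3 days to 2 hours were 6 higher and 1 lower, beside 30.2% and 12.4% of all 9124 genes tested, led by Psmb7 (1.35), Psmb10 (0.91) and Psme3 (0.78) among the higher, with Psmd11 (-0.78) lower. In NK cells the counts at 2 hours to naive were 4 higher and 4 lower, beside 15.3% and 40% of all 7429 genes tested. Psme1 (0.72), Psmd11 (0.69) and the ATPase gene Psmc4 (0.62) led the higher genes, and Psme4 (-2.47), Psmd14 (-1.46) and Psmb10 (-0.81) the lower. NK cell counts at 3 days to naive were 0 higher and 2 lower, beside 11.4% and 27% of all 7429 genes tested, the lower ones being Psme4 (-1.46) and Psmd14 (-1.33), and at 3 days to 2 hours 6 higher and 1 lower, beside 31.9% and 12.6% of all 7429 genes tested. There Psme4 (1.01), the base scaffold gene Psmd2 (0.93) and Psmb10 (0.92) led, with Psmd11 (-0.80) lower.

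In neutrophils the counts were 5 higher and 8 lower, beside 20.4% and 34.3% of all 6628 genes tested at 2 hours to naive, 16 higher and 3 lower, beside 24.8% and 22.1% of all 6628 genes tested at 3 days to naive and 17 higher and 1 lower, beside 30.9% and 13.5% of all 6628 genes tested at 3 days to 2 hours. At 2 hours to naive, Psme2b (1.02) and the lid genes Psmd7 (0.89) and Psmd12 (0.82) were highest, though the intervals of Psme2b and Psmd7 include 0, and Psmd14 (-1.87), Psmb8 (-1.52) and Psmd1 (-1.52) were lowest. Then, at 3 days to naive, Psme2b (2.69), Psmd7 (1.18) and Psmb6 (1.10) were higher and Psmd14 (-2.04), Psme4 (-0.99) and Psmd11 (-0.87) lower. Between the transplant libraries, Psmb9 (2.0), Psmb8 (1.84) and Psme2b (1.66) led, and Psmd11 (-0.93) was lower. The median over the 41 genes was 0.51 in that comparison, beside 0.25 over all genes tested.

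In monocytes the counts were 3 higher and 11 lower, beside 17.1% and 40% of all 8680 genes tested at 2 hours to naive, 6 higher and 2 lower, beside 16.4% and 23.1% of all 8680 genes tested at 3 days to naive and 18 higher and 1 lower, beside 34% and 12.9% of all 8680 genes tested at 3 days to 2 hours. Psmd11 (0.82), the lid gene Psmd3 (0.62) and Psmd10 (0.62) were highest at 2 hours to naive, the intervals of the last 2 including 0, and Psme4 (-2.09), Psme2b (-1.99) and Psmd1 (-1.68) lowest. For monocytes at 3 days to naive, Psmd10 (0.80), the lid gene Psmd6 (0.78) and Psmb4 (0.75) were higher, and Psme4 (-1.13) and Psmd1 (-0.87) lower. Between 3 days and 2 hours, Psme2b (1.48), whose interval includes 0, Psmb7 (1.40) and Psmb9 (1.2) led, with Psmd11 (-0.91) lower. The median was 0.46 beside 0.29 over all genes.

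No difference between these counts and the shares of all genes was tested. In B cells the median over the genes tested was -0.05 at 2 hours to naive, 0.23 at 3 days to naive and 0.20 at 3 days to 2 hours. The median over all genes was -0.38, -0.02 and 0.32 in the same order. Of the 40 genes tested in all 5 lineages, 0 were higher in every lineage at 2 hours to naive, beside 5.26% of all, and 0 at 3 days to naive, beside 1.45%. Lower in every lineage were Psmb7, Psmd14 and Psme4 at 2 hours to naive, beside 18.4% of all, and Psme4 at 3 days to naive, beside 12%.

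**Figure D5:**
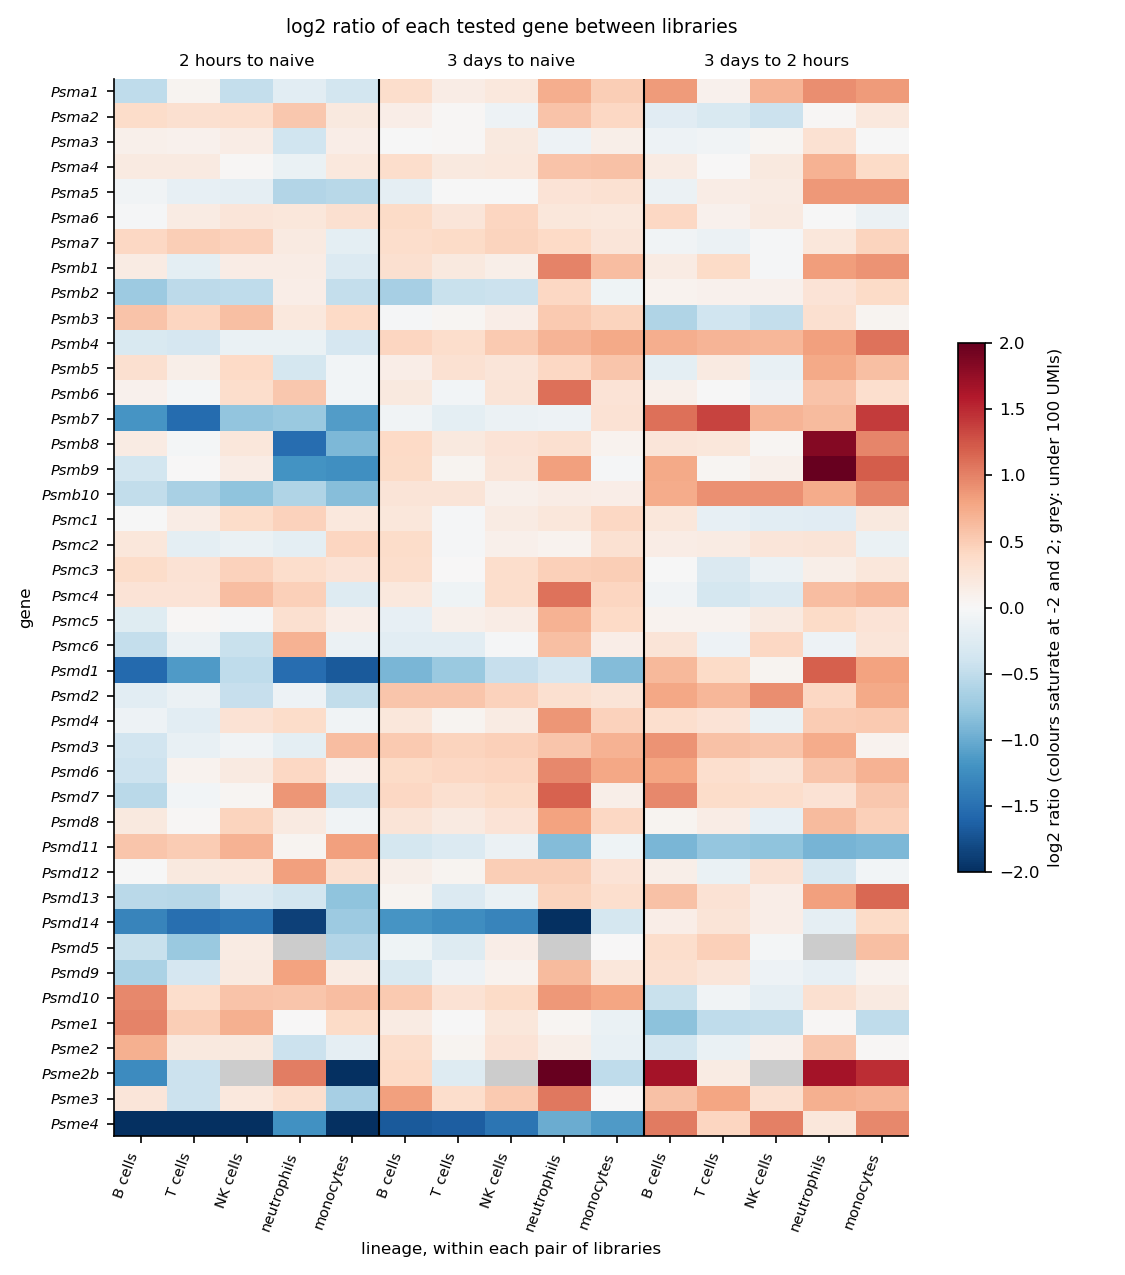
Log2 ratio between libraries of each proteasome gene with at least 100 UMIs in a lineage, in 5 lineages (columns) for each of 3 pairs of libraries (blocks). Red is higher and blue lower in the first library named, and the Psmd11 line is blue across the 3 days to 2 hours block while Psmb4, Psmb7 and Psmb10 are red.

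The remaining genes had few counts. Psmb11, the catalytic subunit of thymic cortex, had 4 UMIs over all cells of the 3 libraries, and Psma8, the alpha subunit of testis, had 25. Psmc3ip, which fits the symbol rule but encodes a recombination factor and no subunit, had 154. In macrophages, with naive and 3-day cells only, Psmc1 measured 40.7 and 129 CPM, a log2 ratio of 1.67 (1.34 to 2.0). The alpha ring gene Psma7 (1.17) and the lid gene Psmd8 (0.97) followed, and Psmd1 (-1.0) and Psmd14 (-0.66) were lower. The naive macrophages lay in cluster 29 and those at 3 days in clusters 9 and 27, so the clusters behind this comparison differ.

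Genes of peptide loading onto MHC class I, a list taken alongside the subunits, were mostly lower at 2 hours than in naive lungs in the myeloid lineages and in B cells. At 2 hours to naive, 1 of 12 tested were higher and 8 lower (median log2 ratio -0.86) in neutrophils and 0 of 12 tested were higher and 10 lower (median log2 ratio -1.06) in monocytes. In B cells 0 of 12 tested were higher and 7 lower (median log2 ratio -0.67), in T cells 2 of 12 tested were higher and 2 lower (median log2 ratio -0.26) and in NK cells 1 of 12 tested were higher and 4 lower (median log2 ratio -0.40). The medians over all genes tested in this comparison were -0.19 in neutrophils, -0.33 in monocytes, -0.38 in B cells, -0.35 in T cells and -0.32 in NK cells. The list medians of T cells and NK cells were thus near those of all genes. Tap1, the neighbour of Psmb9, measured 104, 24.6 and 75.0 CPM in monocytes, 37.1, 21.8 and 53.3 CPM in neutrophils, 68.1, 42.9 and 89.8 CPM in B cells, 63.1, 101 and 87.3 CPM in T cells and 64.6, 60.4 and 90.8 CPM in NK cells. It was lowest at 2 hours in all but T cells, where the 2-hour value was the highest. B2m, the light chain of MHC class I, measured 1589, 689 and 1774 CPM in neutrophils and 1092, 899 and 1449 CPM in B cells. Between 3 days and 2 hours, 8 of 12 of the list were higher in B cells, 8 in neutrophils and 9 in monocytes, with none lower. Of all genes tested, 34.7%, 30.9% and 34% were higher in these 3 lineages.

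Most listed interferon-induced genes were higher in T cells and lower in monocytes at 2 hours than in naive lungs, and the difference between lineages was not tested. At 2 hours to naive, 13 of 15 tested were higher and 0 lower (median log2 ratio 1.04) in T cells, while 1 of 14 tested were higher and 10 lower (median log2 ratio -1.23) in monocytes and 1 of 12 tested were higher and 6 lower (median log2 ratio -0.53) in neutrophils. In B cells 4 of 12 tested were higher and 2 lower (median log2 ratio 0.15), and in NK cells 4 of 11 tested were higher and 2 lower (median log2 ratio 0.37). Of all genes tested, 14.2% were higher and 40.7% lower in T cells, 17.1% were higher and 40% lower in monocytes, 20.4% were higher and 34.3% lower in neutrophils, 16.7% were higher and 43.2% lower in B cells and 15.3% were higher and 40% lower in NK cells, the background for each list in this comparison. Of the regulators, Irf1, an interferon-induced transcription factor, measured 71.1, 115 and 97.7 CPM in neutrophils and 68.7, 71.9 and 81.5 CPM in B cells. Over the list of regulators at 2 hours to naive, 1 of 7 tested were higher and 3 lower (median log2 ratio -0.54) in B cells and 3 of 7 tested were higher and 2 lower (median log2 ratio 0.43) in neutrophils.

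Of the assembly factors and subunits outside the symbol rule, 2 of 13 tested were higher and 2 lower (median log2 ratio 0.14) in B cells at 2 hours to naive. For 3 days to naive, 0 of 13 tested were higher and 2 lower in B cells, beside 15.1% and 27.3% of all genes. In T cells 0 of 13 tested were higher and 3 lower, beside 11.6% and 27.1% of all genes. In NK cells 0 of 12 tested were higher and 2 lower, beside 11.4% and 27% of all genes. Pomp, which matures the core, measured 89.2, 166 and 112 CPM in neutrophils and 97.2, 118 and 118 CPM in B cells, so that in neutrophils it was highest at 2 hours, where the immunoproteasome genes were lowest. Of the ubiquitin list, 6 of 14 tested were higher and 3 lower (median log2 ratio 0.04) in B cells and 6 of 14 tested were higher and 1 lower (median log2 ratio 0.40) in neutrophils at 2 hours to naive. Of the heat-shock list, 6 of 8 tested were higher and 0 lower (median log2 ratio 1.54) in B cells, 4 of 9 tested were higher and 0 lower (median log2 ratio 0.40) in T cells and 4 of 7 tested were higher and 0 lower (median log2 ratio 0.76) in neutrophils. Clusters led by heat-shock genes lay among the T cells and B cells of the 2-hour library, as clusters 18 and 20, with immunoproteasome shares of 69.5% (62.4 to 75.9%) and 58.1% (47.4 to 68.2%).

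List genes past 1.5-fold in B cells are named with their log2 ratios. At 2 hours to naive, the MHC class I list had Tap1 (-0.67), Tap2 (-0.88), Erap1 (-1.01), H2-K1 (-0.84), H2-D1 (-0.98), Pdia3 (-0.67) and Calr (-0.92) lower, the interferon list Gbp3 (0.67), Gbp4 (1.81), Gbp7 (2.45) and Isg15 (2.29) higher and Irgm2 (-2.73) and Stat2 (-0.75) lower and the regulators Nfe2l2 (0.62) higher and Nfe2l1 (-0.66), Ddi2 (-0.96) and Nlrc5 (-1.59) lower. The assembly list had Sem1 (1.18) and Uchl5 (1.2) higher and Ube3c (-3.13) and Ecpas (-1.88) lower, the ubiquitin list Ubb (0.70), Rps27a (1.15), Ubqln2 (0.95), Zfand2a (0.92) and Zfand5 (0.67) higher and Ufd1 (-0.69) and Nploc4 (-2.0) lower and the heat-shock list Hspa1a (2.15), Hspa1b (2.49), Hspa8 (0.93), Dnajb1 (3.62), Dnaja1 (2.42) and Zfand2a (0.92) higher. The class I genes that were lower thus included both subunits of the TAP transporter.

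For 3 days to naive, the MHC class I list had Tapbpl (0.72) higher and Erap1 (-0.67) lower, the interferon list Gbp2 (1.03), Gbp3 (1.17), Gbp4 (0.85), Gbp7 (1.36) and Isg15 (0.71) higher and the regulators Nlrc5 (-1.57) lower. The assembly list had Ube3c (-1.38) and Ecpas (-0.94) lower, the ubiquitin list Uba1 (0.59), Ubqln2 (1.31) and Zfand2a (1.32) higher and Ufd1 (-0.73) and Nploc4 (-1.32) lower and the heat-shock list Hspa1a (1.25), Hspa1b (0.61), Hsp90aa1 (0.75), Dnajb1 (0.88), Dnaja1 (0.77) and Zfand2a (1.32) higher. Heat-shock genes were the list with the most genes past 1.5-fold in this comparison.

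For 3 days to 2 hours, the MHC class I list had Tap1 (1.07), Tap2 (0.77), Tapbp (1.05), B2m (0.69), H2-K1 (0.94), H2-D1 (1.09), Pdia3 (0.65) and Calr (1.43) higher, the interferon list Gbp2 (0.86) and Irgm2 (2.15) higher and Gbp4 (-0.96), Gbp7 (-1.09) and Isg15 (-1.58) lower and the regulators Nfe2l1 (1.12) and Ddi2 (0.66) higher and Nfe2l2 (-0.60) lower. The assembly list had Ube3c (1.76) and Ecpas (0.93) higher and Adrm1 (-0.72), Sem1 (-0.69) and Uchl5 (-1.71) lower, the ubiquitin list Uba1 (0.72) and Nploc4 (0.68) higher and Ubb (-0.62) and Rps27a (-0.63) lower and the heat-shock list Hsp90aa1 (0.68) higher and Hspa1a (-0.90), Hspa1b (-1.89), Hspa8 (-0.64), Dnajb1 (-2.74) and Dnaja1 (-1.65) lower.

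Over the 15 combinations of lineage and library, the genes whose log2(CPM + 1) ran closest to that of Psmb8, Psmb9 and Psmb10 summed were Atp5a1 (0.956), Tmed9 (0.952), Ndufb3 (0.949), Cct8 (0.948), Mogs (0.947), Tradd (0.942), Ywhah (0.940), Pak1ip1 (0.940), Polr2f (0.938) and Dnajc4 (0.938), by Pearson's r among 8082 genes averaging 10 CPM or more. Of the subunits, Psmb6 reached 0.848, Psmb5 0.811, Psme2 0.805, Psme1 0.716 and Psmb7 0.587. The points share libraries, depth and the CPM scale, and the values are a description.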

How the data were processed

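Single-cell RNA-Seq was measured in 3 libraries. The authors deposited unnormalized UMI counts per gene and cell, as Cell Ranger 7.1.0 (naive) and 6.0.0 (others) wrote them per the file headers. The submitters' processing notes name mm10, Cell Ranger 6 and Seurat 4. The labels and the methods name different 10x kits. The annotation and the counting of introns are not given in the sources used here. Antibody counts of the transplant libraries were not used, and 0 per-sample columns were left unmapped.

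Following the methods, the cell filters were 200 to 6000 genes, a mitochondrial share under 10% and a total under 25000 UMIs. Cells that passed were clustered with Seurat 5.3.0 and sctransform 0.4.2 in R 4.3.3 (30 principal components, resolution 0.8) with the proteasome genes left out. Clusters were named where the median log2 ratio of a marker list exceeded 1 with at least 3 markers. Doublets called by Scrublet in scanpy 1.11.5 (40, 403 and 277 cells) were removed only in an alternative.

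UMIs were summed per lineage and library in Python 3.11.15. Sums carry exact Poisson intervals, shares Clopper-Pearson intervals, ratios intervals conditional on the total, differences of shares Newcombe intervals and differences of ratios Wald intervals, all at 95%. No p-value was computed. Gene coordinates and intron lengths were those of GENCODE on GRCm38, the assembly of mm10. The functions were tested on simulated data. Genes named were Psmb5 to Psmb11, Psme1 to Psme4 and Psma8, the 3 largest changes in each direction per lineage and comparison, the list genes past 1.5-fold in B cells (a few are not reported here) and the 10 genes closest in pattern. Uchl5, Irf1, Tap1, B2m and Pomp in other lineages, Psmb4 in neutrophils and monocytes, and cluster 22 were chosen after their values were seen. Results set apart for a closer look were gene groups whose ratios had intervals off 0 in opposite directions between lineages, a criterion set after the values were seen. Alternatives changed the filters, lineage calls, totals, weighting and fold. The genes and lists were chosen with earlier results of these data known.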

Additional observations from a re-analysis of the deposited data

Results flagged for a closer look

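Some gene groups went opposite ways in different lineages, with counting intervals that leave out 0 on both sides, a criterion set after the values were seen. None of these differences between lineages was tested across libraries, since each condition had 1 library. PA28 (Psme1 and Psme2 summed) had a log2 ratio at 3 days to 2 hours of 0.22 in neutrophils, against -0.70 in B cells, -0.40 in T cells, -0.34 in NK cells and -0.32 in monocytes. Its ratio at 3 days to naive was 0.22 in B cells and 0.24 in NK cells and -0.14 in monocytes. The immunoproteasome share of catalytic UMIs at 3 days was higher than naive by 4.44 percentage points in B cells and differed by -5.33 points in monocytes.

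Smaller opposite values were found in the structural groups. The alpha ring stood at 0.34 in neutrophils and 0.35 in monocytes and at -0.070 in T cells at 3 days to 2 hours, and the 19S ATPases at 0.24 in monocytes and -0.12 in T cells. The other 19S subunits had ratios at 3 days to naive of 0.21 in neutrophils, 0.21 in monocytes and -0.087 in T cells. The beta genes without catalytic activity were at 0.15 in NK cells and -0.10 in T cells at 2 hours to naive. With the total over genes with under 10 kb of introns, the ratios of PA28 and the other 19S subunits at 3 days to naive and of the beta genes at 2 hours to naive are all below 0, so these 3 sets are no longer opposite. That total shifts T cells by 0.041 at 3 days to 2 hours. The T cell intervals of the alpha ring and ATPases, with upper limits of -0.0031 and -0.020 on the CPM scale, then include 0. These groups thus no longer meet the criterion either.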

How the results depend on the processing

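Of 387 values recomputed under alternatives, 315 stayed within the counting interval or, for counts, within 1.5 times. Taking the total over genes with under 10 kb of introns shifted every gene of a lineage alike, by -0.58 (2 hours to naive), -0.48 (3 days to naive) and 0.10 (3 days to 2 hours) in B cells on the log2 scale. The log2 ratio of the 45 genes summed then turned at 3 days to naive, to -0.38 in B cells, -0.28 in NK cells, -0.087 in neutrophils, -0.13 in monocytes and -0.28 as the median over lineages. At 2 hours to naive it turned to -0.39 in NK cells and moved to -0.57 in B cells and -0.57 as the median. At 3 days to 2 hours it moved to 0.19 in B cells and 0.19 as the median. Under it 23 (2 hours to naive) and 9 (3 days to naive) B cell genes were past 1.5-fold. The share of all genes past 1.5-fold under this total is not given here, so these counts are no result about the proteasome genes. Without ribosomal, mitochondrial and immunoglobulin genes, the sum moved to 0.13 in B cells and 0.075 as the median at 2 hours to naive, and to 0.25 and 0.25 at 3 days to naive. Calling lineages cell by cell turned neutrophils at 2 hours to naive to 0.0088 and T cells at 3 days to 2 hours to -0.045, and moved the median at 2 hours to naive to 0.023. Without a cell filter the median at 2 hours to naive was -0.15 and the B cell value at 3 days to naive 0.15, and with equal weights they were 0.024 and 0.14. Past a fold of 2, 5, 2 and 3 B cell genes remained in the 3 comparisons, again without the share of all genes beside them. The cause of these shifts was not tested. The neutrophil difference in immunoproteasome share at 2 hours from naive lay between -17.6 and -12.4 points under all alternatives. Removing doublets, a resolution of 0.4 and leaving out heat-shock clusters, an alternative chosen after seeing the data, turned no direction. Keeping the proteasome genes among the genes for clustering gave the same clusters, since 0 of them were among the 3000 variable genes. No paired analysis was possible because each condition had 1 library. The shallow 2-hour library limits genes of few counts, such as Psme2b.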
